A study of Mus musculus with 6 samples.

Results

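Cd24a, Cd69 and Cd44 encode surface proteins by which stage 0 invariant natural killer T (iNKT) cells are recognised and sorted. The 3 genes were taken by symbol from a count table of 48397 genes, and all 3 passed the filter on low counts that left 12312 genes for testing. The table holds 6 RNA-Seq libraries of stage 0 iNKT cells, 3 from BALB/c mice of wild-type (WT) genotype and 3 from SKG mice, which carry a hypomorphic mutation of the kinase gene Zap70 on the same BALB/c background. Some 1000 sorted cells from the combined thymi of 3 mice, 8 to 10 weeks old, went into each library, so differences between single mice cannot be seen. The gate was tetramer-positive, CD44-negative, CD24-positive, CD69-positive, CD4 low or negative and CD8-negative in both genotypes. The protein products of the 3 genes therefore set which cells entered every library, and the counts show RNA within that gate. The comparison asks whether a weaker T cell antigen receptor (TCR) signal is accompanied by other RNA levels of these markers in the earliest iNKT cells.

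CD24 is a short, heavily glycosylated protein held in the membrane by a glycosylphosphatidylinositol (GPI) anchor, abundant on immature thymocytes and lost as they mature. CD69 is a C-type lectin-like protein induced soon after TCR engagement, and it binds the sphingosine-1-phosphate receptor S1PR1 and keeps it from the surface, which holds cells in the thymus. CD44 is a receptor for the matrix sugar hyaluronan, low on the first iNKT cells and high on the later, effector-like stages. As iNKT cells leave stage 0 they lose CD24 and later gain CD44, so these proteins are the usual scale of iNKT maturation.

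Cd24a lies on chromosome 10 of GRCm38 from 43578284 to 43584265 on the plus strand, Cd69 on chromosome 6 from 129267325 to 129275436 on the minus strand, and Cd44 on chromosome 2 from 102811141 to 102901665 on the minus strand. No exon of another annotated gene overlapped their exons. The coding sequence of the main Cd24a transcript, 231 bases from 2 exons between 43579254 and 43582765, is shown because part of it also stands in a processed pseudogene, Gm6212, on chromosome 14 from 119644012 to 119644231. Capitals mark the 167 bases covered by stretches of 50 bases, the read length, that are identical in the pseudogene.
Cd24a coding sequence: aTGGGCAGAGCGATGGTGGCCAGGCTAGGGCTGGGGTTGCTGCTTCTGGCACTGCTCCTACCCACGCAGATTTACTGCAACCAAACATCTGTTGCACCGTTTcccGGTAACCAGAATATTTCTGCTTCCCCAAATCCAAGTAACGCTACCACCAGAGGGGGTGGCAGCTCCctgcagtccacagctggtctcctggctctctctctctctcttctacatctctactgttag
These shared bases make up 9.20% of the 1816 bases of that transcript, and a read lying wholly in them can be placed at both loci and lost to the authors' mapping quality filter. Of all 50-base stretches in the annotated transcripts, 69 of 2510 for Cd24a, 8 of 6553 for Cd69 and 0 of 7100 for Cd44 occurred in another gene. Little of the counting of these genes was thus open to identical stretches in other annotated transcripts. Copies that differ in some bases, or that are not annotated, were not searched for.

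The libraries held from 37176544 to 43115544 reads on genes, and from 10835 to 14791 genes with at least 10 reads. Expression is given as CPM, the reads of a gene scaled per 1000000 reads of the library after TMM normalization, and fold changes are SKG over BALB/c unless stated. PCR copies cannot be told from separate molecules, so Poisson intervals on reads cover counting error only. In RNA from sorted pools, fewer cells with a transcript and less of it per cell cannot be told apart. With edgeR's quasi-likelihood F test, a gene was called where its false discovery rate (FDR) was below 0.1 and its fold change reached 1.5. By that rule 0 of the 3 markers and 0 of 12312 genes (0%) were called. Without adjustment, p was under 0.05 for 671 genes (5.45%; 3.07% higher and 2.38% lower in SKG), and 1 of the 3 markers, Cd69, was among them on the lower side. The SKG and BALB/c libraries were fully apart for 1710 genes (13.9%; 6.77% higher and 7.12% lower in SKG), and Cd69 was again the one marker among them. DESeq2 called 370 of 14342 genes (2.58%) and none of the 3 markers, with 1443 genes at an unadjusted p under 0.05. The limma-voom test called 0 genes, with 968 at an unadjusted p under 0.05.

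Cd69 was lower in every SKG library than in any BALB/c library. It was at 312, 391 and 354 CPM across BALB/c replicates 1 to 3, and at 152, 179 and 249.5 CPM across SKG replicates 1 to 3. These rested on 12858 to 16010 reads per BALB/c library and 6120 to 9024 per SKG library. BALB/c averaged 353 ± 39.9 CPM and SKG 193 ± 50.4 CPM (SD, n = 3 libraries each), and the fitted level was 1.82-fold higher in BALB/c. The log2 fold change was -0.87 (standard error, SE, 0.22, 95% interval -1.39 to -0.34, edgeR adjusted p = 0.686). Its unadjusted p of 0.00640 in edgeR was among the 114 lowest of all genes tested, a position that 0.926% of genes hold, but it did not pass correction over all genes. A two-sided exact permutation test on log2 CPM gave p = 0.1, the smallest that 3 libraries against 3 allow. Its highest BALB/c library was 1.26-fold above the lowest, and its highest SKG library 1.64-fold. The SD of log2 CPM within genotypes was 0.28, and 16.1% of genes tested had a lower one. Cd69 was thus among the more evenly counted genes of these libraries, and the difference was larger than the spread between replicates although not called.

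Cd24a had a higher mean in SKG, with overlapping libraries. It was at 52.4, 7.31 and 15.6 CPM across BALB/c replicates 1 to 3, and at 31.9, 88.6 and 90.7 CPM across SKG replicates 1 to 3. BALB/c replicate 1 lay above SKG replicate 1, while the other 2 BALB/c libraries lay below every SKG library. The reads numbered 2161, 271 and 703 in BALB/c and 1284, 3443 and 3281 in SKG, and even the lowest of these, 271, had a 95% Poisson interval of only 239.7 to 305.3. Counting error was therefore far smaller than the 7.17-fold range among the BALB/c libraries. BALB/c averaged 25.1 ± 24.0 CPM and SKG 70.4 ± 33.4 CPM (SD, n = 3 each). The log2 fold change was 1.49 (SE 0.80, edgeR adjusted p = 0.959), a fold of 2.81. Its 95% interval ran from -0.43 to 3.40, or from 0.744-fold to 10.6-fold, so that a small decrease and a large increase in SKG both lay within it. Without BALB/c replicate 1 the log2 fold change was 2.63 and without BALB/c replicate 2 it was 1.05.

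Cd44 RNA was scarce in all 6 libraries, whose cells were gated as CD44-negative. It was at 6.89, 14.5 and 4.07 CPM across BALB/c replicates 1 to 3, and at 0.571, 0.103 and 5.01 CPM across SKG replicates 1 to 3. SKG replicates 1 and 2 lay below every BALB/c library, whereas SKG replicate 3 lay above BALB/c replicate 3. SKG replicate 2 held 4 reads of Cd44 (95% Poisson interval 1.09 to 10.2) and SKG replicate 1 held 23 (14.6 to 34.5), against 181 in SKG replicate 3 and 184 to 536 in BALB/c. The SKG libraries therefore spanned a 48.6-fold range. BALB/c averaged 8.47 ± 5.37 CPM and SKG 1.89 ± 2.71 CPM (SD, n = 3 each). The log2 fold change was -2.16 (SE 1.51, 95% interval -5.77 to 1.45, edgeR adjusted p = 0.988). Its SD within genotypes, 1.91 on the log2 scale, exceeded that of 75.5% of genes tested, against 67.6% for Cd24a with an SD of 1.18. Without SKG replicate 3 the log2 fold change of Cd44 was -4.63, with an unadjusted p of 0.0234 and an adjusted p of 0.831 from edgeR. It was -1.55 without BALB/c replicate 2 and -1.60 without SKG replicate 2, with unadjusted p of 0.411 and 0.303 from edgeR.

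**Figure D1:**
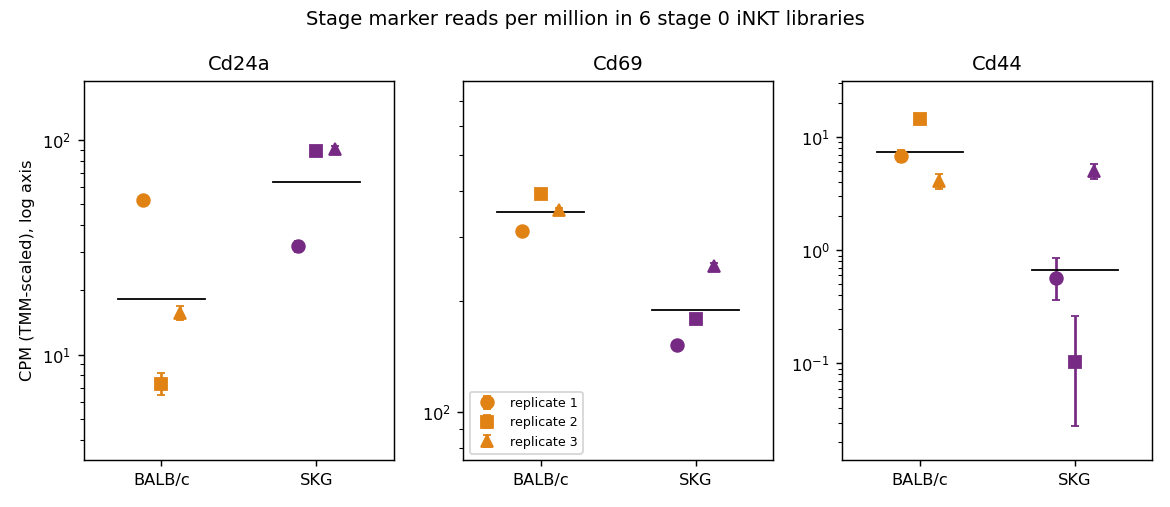
Level of Cd24a, Cd69 and Cd44 in each library (y axis, CPM scaled with TMM factors, logarithmic and different in each panel), for BALB/c in orange and SKG in purple. Error bars are 95% Poisson intervals, horizontal lines are geometric means of 3 libraries, and only for Cd69 do the SKG libraries (152 to 249.5) lie wholly below the BALB/c libraries (312 to 391).

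The markers were next set against each other within a library, which needs no scaling between libraries. For each read of Cd24a there were 5.95, 53.6 and 22.8 reads of Cd69 across BALB/c replicates 1 to 3, and 4.77, 2.02 and 2.75 across SKG replicates 1 to 3. Every SKG library had a lower ratio of the activation marker to the immaturity marker than any BALB/c library, although SKG replicate 1 and BALB/c replicate 1 lay close. The log2 ratio averaged 4.28 ± 1.60 for BALB/c and 1.58 ± 0.63 for SKG (SD, n = 3 each), a difference of -2.70 (two-sided exact permutation test, p = 0.1, adjusted p = 0.15 over 3 ratios). The ratio of Cd44 to Cd24a was 0.131, 1.98 and 0.262 in BALB/c and 0.0179, 0.00116 and 0.0552 in SKG. It was also lower in each SKG library, with a log2 difference of -5.28 (two-sided exact permutation test, p = 0.1, adjusted p = 0.15). The ratio of Cd69 to Cd44 overlapped, at 27.1 to 87.0 in BALB/c and 49.9 to 1738 in SKG (log2 difference 2.58, two-sided exact permutation test, p = 0.2, adjusted p = 0.2). Since 0.1 is the smallest p these 6 libraries allow, none of the ratios could have passed 0.05.

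**Figure D2:**
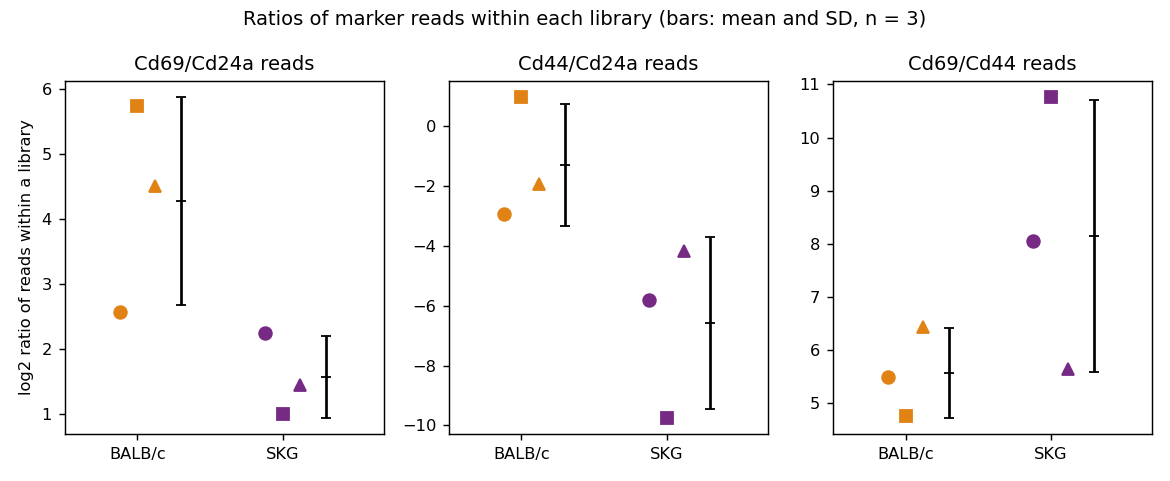
Log2 ratio of the reads of 2 markers within each library (y axis, different in each panel) for BALB/c in orange and SKG in purple, with circles, squares and triangles for replicates 1, 2 and 3, and black bars for the mean and SD of 3 libraries. Both ratios to Cd24a are lower in all SKG libraries, with means of 4.28 and 1.58 for Cd69 over Cd24a, while those of Cd69 to Cd44 overlap.

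Levels of different genes were compared only per length, as CPM divided by the length of merged exons in kilobases (RPKM). In BALB/c, Cd69 stood at 54.2 ± 6.13 RPKM (SD, n = 3), Cd24a at 9.72 ± 9.30 and Cd44 at 1.25 ± 0.79. In SKG, Cd69 stood at 29.7 ± 7.75 RPKM (SD, n = 3), Cd24a at 27.3 ± 12.9 and Cd44 at 0.28 ± 0.40. The order of levels was Cd69, Cd24a, Cd44 in 5 of the 6 libraries, while in SKG replicate 2 the level of Cd24a was above that of Cd69. Per length of merged exons, the levels of Cd69 and Cd24a in SKG did not differ beyond their spread. The merged exons of Cd69, 6509 bases, include retained introns, and with its longest protein-coding transcript of 1687 bases Cd69 led in all 6 libraries, at 209 ± 23.6 RPKM in BALB/c and 115 ± 29.9 in SKG (SD, n = 3). Cd24a by its longest protein-coding transcript stood at 13.8 ± 13.2 RPKM in BALB/c and 38.8 ± 18.4 in SKG (SD, n = 3). By that length the 2 levels in SKG differed beyond their spread. Among 11913 tested genes with a length, the level of Cd69 per length of merged exons stood between the 77.8 and the 92.2 percentile of each library. That of Cd24a stood between 33.7 and 84.7, and that of Cd44 between 4.89 and 29.4. Counts per gene do not separate the 9 annotated transcripts of Cd44, a gene known for variant exons.

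Because other thymic cells carry CD24 and CD44, marker genes of such cells were summed in each library. The summed CPM of 9 B cell markers was 128, 6.96 and 15.3 across BALB/c replicates 1 to 3, and 4.74, 28.3 and 147 across SKG replicates 1 to 3. The sum of 9 myeloid markers was 87.3, 8.38 and 4.43 in BALB/c and 7.02, 8.95 and 178 in SKG. BALB/c replicate 1 and SKG replicate 3 thus carried the most of both, and they were the highest library of their genotype for Cd24a as well. SKG replicate 2, with sums of 28.3 and 8.95, had nearly as much Cd24a (88.6 CPM) as SKG replicate 3 (90.7 CPM). SKG replicate 3 was also the one SKG library with Cd44 near the BALB/c level. The BALB/c libraries differed in this, since replicate 2, with sums of 6.96 and 8.38, had more Cd44 (14.5 CPM) than replicate 1 (6.89 CPM). Of the B cell genes, Ighd had no read in any library and Pax5 at most 5 reads per library, while Ighm and Cd74 gave most of the sum. H2-Aa reached 353 reads for BALB/c replicate 1 and 826 for SKG replicate 3. Cd79a had 274 and 0 reads there, and Cd79b 0 and 303. Of the myeloid genes, Cd14 had no read, Csf1r and Adgre1 at most 3 and Itgam at most 8. Others were well counted where the sum was high. BALB/c replicate 1 held 2215 reads of Lyz2, 733 of C1qb and 456 of Cd68, against 3873, 1165 and 1018 for SKG replicate 3. C1qa had 198 and 0 reads there, and Fcgr3 0 and 385. Without BALB/c replicate 1 and SKG replicate 3, a choice made after seeing the data, the log2 fold changes were 2.41 for Cd24a, -1.16 for Cd69 and -4.76 for Cd44. None of these markers, and no other gene in that fit, was called. Their adjusted p was 0.795 for each from edgeR, with unadjusted p of 0.0243, 0.00154 and 0.0341. What part these cells had in the values of Cd24a and Cd44 was not tested.

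**Figure D3:**
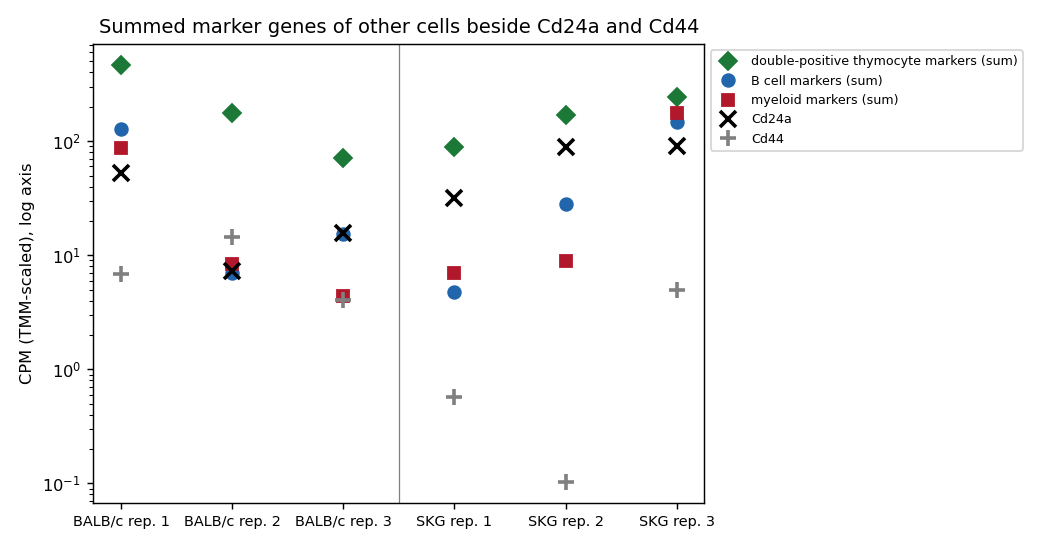
Summed CPM of the marker genes of double-positive thymocytes, B cells and myeloid cells, with the CPM of Cd24a and Cd44, in each of the 6 libraries (y axis logarithmic). BALB/c replicate 1 and SKG replicate 3 have the highest B cell sums (128 and 147) and myeloid sums (87.3 and 178), and Cd24a is as high in SKG replicate 2 as in SKG replicate 3.

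Double-positive thymocytes are the CD24-rich precursors that the gate was drawn to remove. The sum of 8 of their markers ranged from 71.3 to 467 CPM in BALB/c and from 88.6 to 242 in SKG, with the highest value in BALB/c replicate 1. Across replicates 1 to 3 it was 467, 176 and 71.3 CPM in BALB/c and 88.6, 169 and 242 in SKG. The SKG libraries had the same order for this sum and for Cd24a, and BALB/c replicate 1 was the highest of its genotype for both. BALB/c replicate 2 and SKG replicate 2, with similar sums, had Cd24a at 7.31 and 88.6 CPM. The part of these cells in the level of Cd24a was not tested. The erythroid sum was 69.7 CPM in BALB/c replicate 1 and at most 1.57 in the other 5 libraries. The neutrophil sum was at most 0.309 CPM in any library, and the thymic epithelial sum, nearly all of it Epcam, ranged from 10.0 to 86.9 CPM. The 10 genes listed for stage 0 iNKT cells, Cd69 and Cd24a included, together gave 5749 to 6636 CPM in BALB/c and 5770 to 6583 in SKG. Among them, Zbtb16, which encodes PLZF, was at 151 CPM in BALB/c and 119 in SKG on average. Cd3e and Trac in this list are not particular to stage 0 iNKT cells, so the sum is no measure of stage 0 content. Slamf6, a SLAM family receptor with a role in iNKT development, gave the largest part of this sum and was higher in every SKG library, at 2628 CPM in BALB/c and 3325 in SKG on average (log2 fold change 0.34 with SE 0.13, edgeR adjusted p = 0.869). Egr2 was lower in every SKG library, at 1351 and 777 CPM on average, so that similar sums held differences in both directions. The defining genes of early iNKT cells were counted in all 6 libraries. Among the TCR alpha segments, Trav11d had 803 to 1264 reads per library, Traj18 43 to 88 and Trav11 at most 7.

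Among the 9 genes of the sort gate, 0 were called, as among all genes tested. Cd69 alone of the 9 did not overlap, where 13.9% of all genes tested did not. Trac and Trbc2, constant regions of the TCR, had log2 fold changes of -0.02 and 0.08. Coreceptor RNA varied widely, with Cd8a at 922 to 4985 reads per BALB/c library and 1190 to 2396 per SKG library, in cells sorted as CD8-negative. Scaled to the reads of the CD3 chain genes Cd3d, Cd3e and Cd3g in place of the library total, Cd69 stood at 106, 168 and 144 reads per 1000 CD3 reads across BALB/c replicates 1 to 3, against 68.8, 77.7 and 93.1 for SKG. Every SKG library was again below every BALB/c library, with a log2 difference of -0.79 (two-sided exact permutation test, p = 0.1). By the same measure Cd24a (1.91) and Cd44 (-3.38) overlapped between the genotypes (two-sided exact permutation test, p = 0.2 for each).

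**Figure D4:**
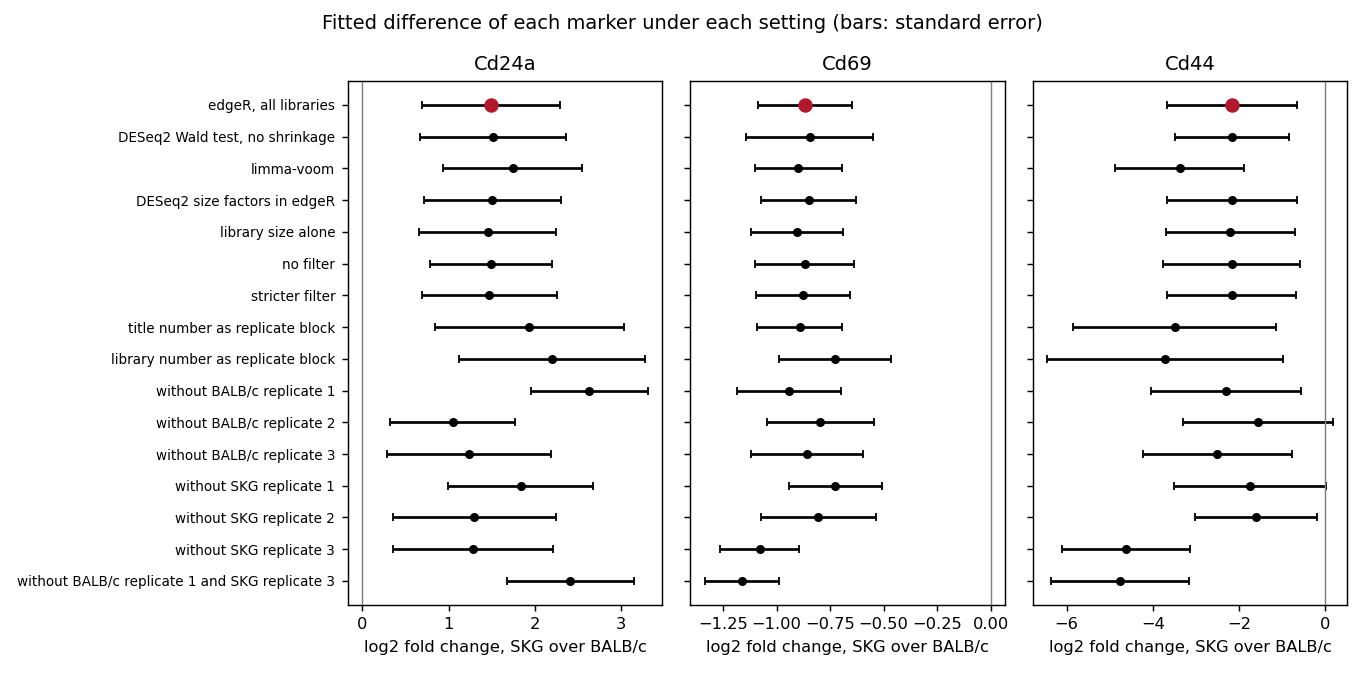
Log2 fold change of each marker, SKG over BALB/c (x axis, different in each panel, with a line at 0), with its standard error under each way of fitting the counts, and the edgeR fit to all libraries in red. Cd24a stays above 0 (1.05 to 2.63) and Cd69 (-1.16 to -0.73) and Cd44 (-4.76 to -1.55) below 0 in each setting drawn, and none was called in any. Only DESeq2 and the fit without a filter called any gene.

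Cd69 belongs to a wider set of surface proteins that T cells gain on activation, of which 14 genes were examined and 13 tested. By the call rule 0 rose and 0 fell. The median log2 fold change of the 13 was -0.10, against -0.02 for all genes tested. Besides Cd69, every SKG library lay below BALB/c for Tnfrsf9 (4-1BB), Tnfrsf4 (OX40) and Cd200. Tnfrsf9 was at 171 CPM in BALB/c and 65.0 in SKG on average, a log2 fold change of -1.39 (SE 0.22, edgeR adjusted p = 0.617). The log2 fold change of Cd200 was -0.96 (SE 0.31, edgeR adjusted p = 0.833). Tnfrsf4 had 73 to 216 reads per BALB/c library and at most 2 per SKG library. The other 9 genes overlapped between the genotypes, and their log2 fold changes ran from -0.40 for Icos to 4.34 for Ctla4, a gene with at most 29 reads per BALB/c library and 0, 24 and 492 across SKG replicates 1 to 3. Il2ra (1.87, SE 2.33) and Tnfrsf18 (0.75, SE 0.57) also had positive log2 fold changes. Cd5, a receptor whose level follows TCR signal strength, had a log2 fold change of 0.01 (SE 0.14, edgeR adjusted p = 0.999), and Cd28 one of -0.11 (SE 0.20). The log2 fold change of Cd6 was 0.50 in the opposite direction to Cd69 (SE 0.19, edgeR adjusted p = 0.871), with overlapping libraries. In all, 4 of the 13 genes lay lower without overlap and 0 higher, where 7.12% and 6.77% of all genes did. Egr2, the TCR-induced transcription factor by which stage 0 is also recognised, had a log2 fold change of -0.80 (adjusted p = 0.834 from edgeR), close in size to that of Cd69.

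**Figure D5:**
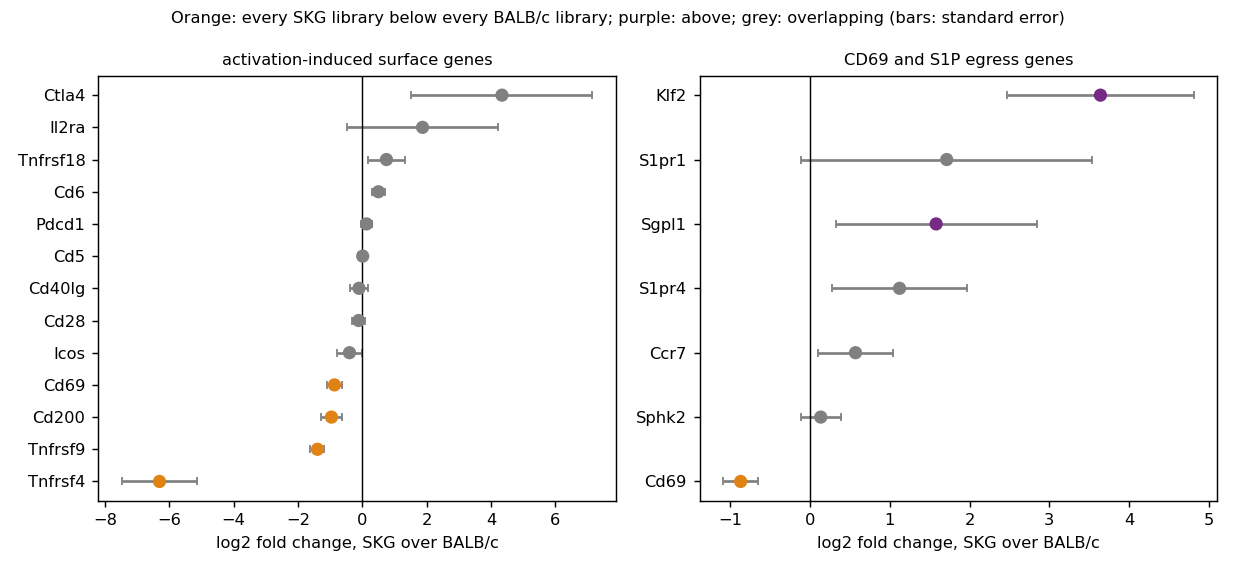
Log2 fold change with its standard error, SKG over BALB/c (x axis), of tested genes of 2 lists to which Cd69 belongs. Of 13 activation-induced surface genes, 4 lie lower in every SKG library (orange), Cd69 among them, while among the genes drawn for sphingosine-1-phosphate (S1P) signalling and egress, Klf2 and Sgpl1 lie higher in every SKG library (purple). Of all genes tested, 7.12% lie lower and 6.77% higher in this way.

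CD69 opposes S1PR1 at the cell surface, and 8 of 10 genes around this axis were tested, of which 0 were called and 6 had a positive log2 fold change. Without overlap, 2 of the 8 lay higher in SKG (Klf2 and Sgpl1) and 1 lower (Cd69), where 6.77% and 7.12% of all genes did. Sgpl1 had a log2 fold change of 1.58 (SE 1.26, edgeR adjusted p = 0.991). It had 20, 1733 and 2986 reads across BALB/c replicates 1 to 3, and 3803 to 5048 per SKG library. S1pr1, the receptor itself, was counted 0, 347 and 137 times across BALB/c replicates 1 to 3, and 542, 291 and 713 across SKG replicates 1 to 3, with BALB/c replicate 2 above SKG replicate 2. Its log2 fold change was 1.71 (SE 1.82, edgeR adjusted p = 0.991), so that its spread was too wide to set it beside Cd69. Klf2, a transcription factor that activates S1pr1, was higher in each SKG library (log2 fold change 3.64 with SE 1.17, edgeR adjusted p = 0.830). In the NK gene complex, where Cd69 lies among other C-type lectin genes, 5 of 15 genes were tested and 0 called. Clec2d, a close relative of Cd69, was at 7.41 CPM in BALB/c and 3.74 in SKG on average and lower in every SKG library (log2 fold change -0.99 with SE 0.82, edgeR adjusted p = 0.991). Clec2i, another relative, had a log2 fold change of 0.11 with overlapping libraries.

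Around Cd24a, 10 of 13 genes of GPI-anchored surface proteins were tested, Cd24a included. Of these 0 were called, and their median log2 fold change was -0.35. Cd24a thus stood among the 3 with a positive value. Cd52, another very short GPI-anchored glycoprotein, was lower in every SKG library (log2 fold change -1.05 with SE 0.40, edgeR adjusted p = 0.871). Ly6c2, an antigen of later iNKT cells, was higher in every SKG library, with 40 to 105 reads per BALB/c library and 168 to 547 per SKG library (log2 fold change 2.53 with SE 0.96, edgeR adjusted p = 0.871). Ly6c1, a close relative whose reads may be shared with Ly6c2, was lower in every SKG library, with 59, 117 and 132 reads across BALB/c replicates 1 to 3 and 36, 0 and 1 across SKG replicates 1 to 3 (log2 fold change -3.01 with SE 1.87, edgeR adjusted p = 0.977). Of 10 genes of immature thymocytes, 8 were tested and 0 called, with a median of -0.40. Cd1d1, which encodes the molecule that presents lipid to iNKT cells, was higher in every SKG library (log2 fold change 1.36 with SE 0.46, edgeR adjusted p = 0.834). Rag1 and Dntt, which act in TCR gene rearrangement, had most reads in BALB/c replicate 1 (1438 and 3595), the BALB/c library with the most Cd24a. BALB/c replicate 2 had more of both (83 and 759) than replicate 3 (4 and 146) but less Cd24a. In SKG, replicate 1 had the fewest of both (0 and 266) and the least Cd24a. SKG replicate 2 (379 and 1615) had more of both than SKG replicate 3 (34 and 1135), which had slightly more Cd24a.

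Around Cd44, 12 of 16 genes of its cytoskeletal linkers and of hyaluronan were tested, Cd44 included, and 0 were called. The median log2 fold change of the 11 tested besides Cd44 was 0.32, against -2.16 for Cd44. Ezr and Msn, which encode the linkers ezrin and moesin, were higher in every SKG library by small amounts (log2 fold changes 0.26 and 0.25, standard errors 0.13 and 0.12, adjusted p = 0.952 for both from edgeR). Epb41, a membrane skeleton protein gene, had a log2 fold change of 1.18 (SE 0.35, edgeR adjusted p = 0.814). Hmmr, a hyaluronan-binding protein of dividing cells, was counted 1874, 84 and 218 times in BALB/c but 8, 2 and 1 times in SKG. The hyaluronan synthase genes Has1, Has2 and Has3 had at most 15 reads in any library. Of 17 genes of later iNKT stages, Cd44 included, 12 were tested and 0 called, with a median of -0.26. Il2rb, a receptor chain for interleukin-15, did not separate the genotypes (log2 fold change 0.10, SE 0.28). Tbx21, which encodes T-bet, had no read in any library. Of the 12 tested, the effector genes Nkg7 and Xcl1 lay lower in every SKG library and Ly6c2 lay higher. Over all genes tested, 7.12% lay lower and 6.77% higher without overlap. Xcl1 had 12 to 70 reads per BALB/c library and at most 1 per SKG library (edgeR adjusted p = 0.679). The log2 fold change of Nkg7 was -3.01 (SE 1.77, edgeR adjusted p = 0.972).

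For each marker the 3 tested genes with the most similar profile over the 6 libraries were found by the root mean square difference between log2 CPM profiles, each centred on its own mean. For Cd69 they were Gxylt1, Ifi27 and Gm15975, at distances of 0.098, 0.12 and 0.13 on the log2 scale. Ifi27 was at 143, 195 and 178 CPM across BALB/c replicates 1 to 3, and 82.4, 84.4 and 104 across SKG replicates 1 to 3. For Cd24a the nearest was Gm26819, at 0.31, with 40.9, 8.30 and 12.4 CPM in BALB/c and 17.4, 64.4 and 64.2 in SKG, followed by Kdm1b (0.46) and Ifitm2 (0.50). For Cd44 they were Gm6630, Begain and Dst, and their distances of 0.66 to 0.69 were wider than those of Cd69 and Cd24a. These genes were picked from 12312 for their likeness over 6 libraries, so the distances are a description only.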

How the data were processed

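Stage 0 iNKT cells of 3 BALB/c and 3 SKG pools were analysed by RNA-Seq. Per the labels, libraries were made with the SMART-Seq v4 kit, whereas the paper's methods name another amplification kit. The authors aligned 50-nt reads with HISAT2 2.1.0 to GRCm38 and, with featureCounts (Subread 1.4.4), counted reads overlapping exons of Ensembl genes without regard to strand. The deposited values are raw read counts per gene. A second deposited table holds only the authors' DESeq2 comparison and was not used. Titles spell the mutant group SGK, and groups were read as SKG from the titles, genotype and library names.

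Counts were filtered with filterByExpr, normalized with TMM and fitted in edgeR 4.0.16 (R 4.3.3) without covariates, with Benjamini-Hochberg adjustment over 12312 genes. Standard errors (SE) were derived from the fold change and the F statistic. Alternatives were DESeq2 1.42.0, limma-voom (limma 3.58.1), other size factors, no filter, at least 100 reads in 3 libraries, replicate blocks, each library left out, and other gene lengths. Added after seeing the data were scaling to CD3 chain reads, the longest protein-coding transcript, and leaving out BALB/c replicate 1 with SKG replicate 3. Profiles used log2 CPM with a prior count of 2. Positions and lengths came from GENCODE vM21 by symbol (95.9% of genes matched). The paper gives the pools as biological replicates within a single experiment, so p-values measure the spread between these pools and not between repeats of the experiment.

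The members and gene lists were chosen with earlier results of these data known. Named genes are the 3 markers, list genes that are in the gate, define a list or have an unadjusted p under 0.05, and the 3 most similar profiles of each marker. Clec2d, Clec2i, Cd5, Cd28, Ezr, Msn, Il2rb, Nkg7, Rag1, Dntt and similar list members were named after their values were seen. Results for some list genes are not reported here.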

Additional observations from a re-analysis of the deposited data

How the results depend on the processing

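Of the 3 markers, 0 were called in edgeR's quasi-likelihood test on all libraries and 0 in every other setting fitted across all genes. Only DESeq2 (370 of 14342) and the fit without a filter (2 of 25935) called any gene. In the other settings the count of 0 thus held for all genes and does not set the markers apart. No marker changed direction in any of its 16 alternatives, scaling to CD3 reads included. Without each library in turn, the log2 fold change ranged from 1.05 to 2.63 for Cd24a, from -1.08 to -0.73 for Cd69 and from -4.63 to -1.55 for Cd44. That of Cd44 was -3.37 with limma-voom. The lowest adjusted p over the alternatives was 0.577 for Cd24a, 0.132 for Cd69 and 0.597 for Cd44, all with DESeq2. Titles share replicate numbers, but deviations from the group means of libraries with the same number correlated at -0.15 to -0.01, and 0 of 3 BALB/c libraries were most like the SKG library of their number. With that number as a replicate block the log2 fold changes were 1.93, -0.89 and -3.49 in the order Cd24a, Cd69 and Cd44, and with the library number as a block 2.19, -0.73 and -3.72. No marker, and no other gene, was called under either block. The within-library ratios kept their sign without each library, from -3.55 to -1.97 for Cd69 over Cd24a, from -6.48 to -3.70 for Cd44 over Cd24a and from 1.28 to 3.84 for Cd69 over Cd44. The mean level of Cd69 over 6 libraries went from 41.9 to 162 RPKM when the longest protein-coding transcript replaced merged exons. Low counts limit Cd44 most, with 4 and 23 reads in SKG replicates 2 and 1, and the 95% intervals of the log2 fold changes of Cd24a and Cd44 both held 0.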
